A study of Mus musculus with 6 samples.

Results

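The immunoproteasome genes are Psmb8, Psmb9 and Psmb10, which encode the inducible catalytic subunits, and Psme1 and Psme2, which encode the subunits of the PA28 activator. They were taken by symbol, and all 5 were found among the 28692 genes counted. The constitutive catalytic genes Psmb5, Psmb6 and Psmb7 were read beside them. The data are single-cell 3′ RNA counts of CD45+ cells, the white blood cells and resident macrophages of the nervous system, sorted alive from mice (C57BL/6) in a study of experimental autoimmune encephalomyelitis, EAE. EAE is a mouse model of multiple sclerosis, in which T cells attack myelin. The groups were miR-155KO mice (KO), which lack the microRNA miR-155, and wild-type mice (WT), each on days 0, 13 and 21 counted from induction. The labels do not say whether the mice of day 0 had been immunised. Every combination of genotype and day was 1 library, with 5 mice a group per the series' design text, and the labels name no replicate, so the animals within a library cannot be told apart. For the knockout the labels name no allele, promoter or cell type, and they give no age. The tissue is labelled brain, while the protocol also names spinal cord.

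A proteasome is a barrel-shaped protease that cuts proteins tagged for destruction into peptides. In cells that meet interferon gamma, Psmb8 takes the place of Psmb5, Psmb9 that of Psmb6, and Psmb10 that of Psmb7 in newly built particles, and the peptides then made suit the groove of MHC class I more often. PA28, a ring of Psme1 and Psme2 products, caps the barrel and speeds the release of peptides. Lymphocytes carry immunoproteasomes at rest, whereas resting microglia, the resident macrophages of brain and spinal cord, are described as holding mostly the constitutive form.

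The 6 libraries held between 6321841 and 24243660 unique molecular identifiers (UMIs, each 1 captured transcript), and 20007 of 20030 barcodes were kept. Cells were classed by 8 markers a class, which include no proteasome gene, and 14763 cells fell in a class. Of the other cells 4289, between 5.36% and 29.3% of a library, held markers of several classes and were left out, and 955 held too few. The 8 microglial markers summed to between 5616 and 20340 CPM (UMIs per 1000000 UMIs of the class) in the microglia class, and none of them was at 0 in any library. The host gene of miR-155, Mir155hg, had 0, 0 and 1 UMI in the KO libraries of days 0, 13 and 21, against 2, 45 and 59 UMIs in the WT libraries. Which part of the gene was deleted is not in the labels. Pairs of libraries shared between 5 and 32 cell barcodes, at most 0.858% of the smaller library. The title of both libraries of a day carries the same number prefix, and each day has its own, so day and any batch that the prefix marks cannot be told apart.

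Psmb8 and Psmb9 lie beside the peptide transporter genes Tap1 and Tap2 in the MHC region of chromosome 17 (GRCm38, the build that mm10 names), at chr17:34197721-34201454 on the plus strand and chr17:34181987-34187764 on the minus strand. Psmb10 lies at chr8:105935735-105938444 on the minus strand. Psme1 (chr14:55578123-55581529, plus strand) and Psme2 (chr14:55587441-55591113, minus strand) are neighbours on chromosome 14. By the RefSeq starts, Psmb9 and Tap1 are read in opposite directions from starts that are 225 bases apart. Windows of 300 bases round each RefSeq start (build GRCm38.p6) were searched on both strands for 3 motifs, and all 5 members had a window. The interferon-stimulated response element, GAAA and GAAA with any 2 bases between them, is bound by IRF factors. It was found in 3.44% of 32851 windows and, among the members, in Psme1 alone. The gamma-activated site, letters TTCNNNGAA, is known from promoters that respond to interferon gamma. It was found in 8.3% of all windows and, among the members, in Psmb8 alone. The GC box, letters GGGCGG, was in 35.7% of windows and in those of Psmb9, Psme1 and Psme2. A match is a description of the letters and not a binding site. The matches to the first 2 motifs, and the GC box between Psmb9 and Tap1, are printed with 30 bases each, 5′ to 3′ on the gene's strand, with the matched letters in capitals:
Psme1, response element, chr14:55578493-55578522, plus strand: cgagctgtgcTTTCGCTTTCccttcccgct
Psmb8, gamma-activated site, chr17:34198088-34198117, plus strand: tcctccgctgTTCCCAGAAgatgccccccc
Psmb9, GC box, chr17:34187368-34187397, minus strand: tgcgcgatgatgGGGCGGggcctcagtctg
The response element in Psme1 lies opposite to the gene's direction, so the capitals are its reverse complement.

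The microRNA that the KO mice lack is shown because its seed (bases 2 to 8, in capitals) sets which messages it can pair with. It is encoded at chr16:84714143-84714165 on the plus strand (GRCm38, RefSeq):
mmu-miR-155-5p: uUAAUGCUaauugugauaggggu
No match to this seed was found in the 3′ untranslated regions of any of the 5 members or of Psmb5, Psmb6 and Psmb7. Of 20822 genes searched, 9.6% had a match. The longest region per gene ran from 44 bases in Psme2 to 687 bases in Psmb9, and a short region has little room for a match. The share over all genes was not adjusted for length.

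Reads of overlapping genes are a limit on these counts. Exons of Psmb8 overlap Gm20496, those of Psmb9 overlap Tap1, those of Psme1 overlap Emc9 and those of Psmb7 overlap Nek6, each on the opposite strand. Whether the counting used strand is not given in the sources used here. Psme2 has a near-identical copy, Psme2b, whose counts were listed apart from it and may hold some of its reads, or the reverse.

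Monocytes/macrophages carried more RNA of all 5 genes than the mean of the other classes on days 13 and 21, and neutrophils had the lowest median CPM of each. CPM are scaled to the plain UMI total of the class, and with edgeR's scaling Psmb9 was higher in neutrophils, as given below. Psmb8 in monocytes/macrophages had 1484 and 778 CPM in the KO libraries of days 13 and 21, against 1430 and 976 CPM in the WT libraries. In microglia Psmb8 had 949 and 431 CPM in the KO libraries of those days, against 823 and 693 CPM in WT. In neutrophils it had 303 and 167 CPM in KO, against 379 and 246 CPM in WT. The highest neutrophil library thus lay below the lowest microglial library for Psmb8. Each class was compared with the mean of the other classes in 24 sums of 6 classes and 4 libraries (edgeR's quasi-likelihood test with library as block and Benjamini-Hochberg adjustment over 10014 genes, threshold 0.05). In monocytes/macrophages 5 of 5 members were higher, by 1.29 ± 0.08 (log2, SE) for Psmb10, 0.86 ± 0.08 for Psme2, 0.69 ± 0.09 for Psmb8, 0.43 ± 0.08 for Psmb9 and 0.36 ± 0.09 for Psme1, where 48.6% of all genes were called in either direction. The constitutive core subunits were higher there too, 14 of 14, with a median of 0.56.

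Microglia had 3 of 5 members lower than the other classes, where 60% of genes were called in either direction. Called members were thus about as frequent as called genes, of which 3265 were higher and 2739 lower. Psmb9 was lower by a log2 change of -0.53 ± 0.09, Psme2 by -0.50 ± 0.09 and Psmb8 by -0.42 ± 0.09 (SE). Psmb10 (-0.12, adjusted p = 0.252) and Psme1 (-0.04, adjusted p = 0.732) did not pass edgeR's test. Microglia were also lower in 13 of the 14 core subunits, led by Psmb3 (-1.01 ± 0.09), and higher in 12 of 15 class I loading genes, led by the chaperones Pdia3 (1.38 ± 0.10) and Calr (1.14 ± 0.09). Scaling to plain library totals moved the median of all genes by 0.33 in microglia, 0.37 in T cells, 0.34 in plasmacytoid dendritic cells and -1.18 in neutrophils (log2). With it Psmb9 alone stayed lower in microglia (-0.24), Psme2 (-0.22) and Psmb8 (-0.13) were no longer called, and Psme1 became higher (0.25), so the order of microglia against the other classes rests on the scaling for these 3 genes. With plain totals 5 of the 14 core subunits stayed lower and 13 of the 15 class I loading genes were higher.

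Neutrophils were lower for Psmb10 (-1.01 ± 0.10), Psmb8 (-0.72 ± 0.10) and Psme1 (-0.37 ± 0.09), where 65.2% of genes were called in either direction. Psmb9 was higher by 0.23 ± 0.09, but lower by a log2 change of -0.86 with plain totals, under which all 5 members were lower. Psmb5, Psmb6 and Psmb7 were all higher in neutrophils too, with a median of 0.57, and all lower with plain totals. T cells were higher for 1 of 5 members, Psmb8 (0.36 ± 0.09), where 42.8% of genes were called in either direction. With plain totals 4 members were higher in T cells. B cells were lower for 1 of 5 members, Psme2 (-0.48 ± 0.10), where 46.9% of genes were called in either direction. Plasmacytoid dendritic cells were lower for 1 of 5 members, Psmb10 (-0.41 ± 0.12), where 35% of genes were called in either direction. That call was lost with plain totals, under which Psmb8, Psmb9, Psme1 and Psme2 were higher, and without the KO day 13 library.

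By median CPM over the 4 libraries of days 13 and 21, the order for Psmb8 was monocytes/macrophages (1203), T cells (1161), plasmacytoid dendritic cells (1077), NK cells (811, 3 libraries), B cells (782), microglia (758) and neutrophils (275). Neighbours in this order overlapped, except plasmacytoid dendritic over NK cells and microglia over neutrophils. Psmb10 differed in order: monocytes/macrophages led with 461 CPM, T cells had 281, NK cells 274, microglia 227, B cells 221, plasmacytoid dendritic cells 213 and neutrophils 63.4. Only neutrophils stood apart from their neighbour there. Psmb9 medians ran from 154 CPM in neutrophils to 335 CPM in plasmacytoid dendritic cells, and every class overlapped its neighbour. Psme1 medians lay between 534 and 587 CPM in all classes but neutrophils, whose 213 CPM stood apart. Monocytes/macrophages did not lead for Psme1. Their median of 570 CPM was below those of NK cells (587), plasmacytoid dendritic cells (582) and microglia (573), with overlapping libraries. Psme2 ran from 233 CPM in neutrophils to 679 CPM in monocytes/macrophages. These orders use plain totals, under which the median log2 change over all genes was -1.18 in neutrophils against the other classes. Conventional dendritic cells were too few for a test, 82 cells over the 4 libraries. Pooled, they had 1677 CPM of Psmb8 (95% interval 1564 to 1796, counting error only), 1196 of Psme1, 1167 of Psme2, 539 of Psmb9 and 328 of Psmb10.

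**Figure D1:**
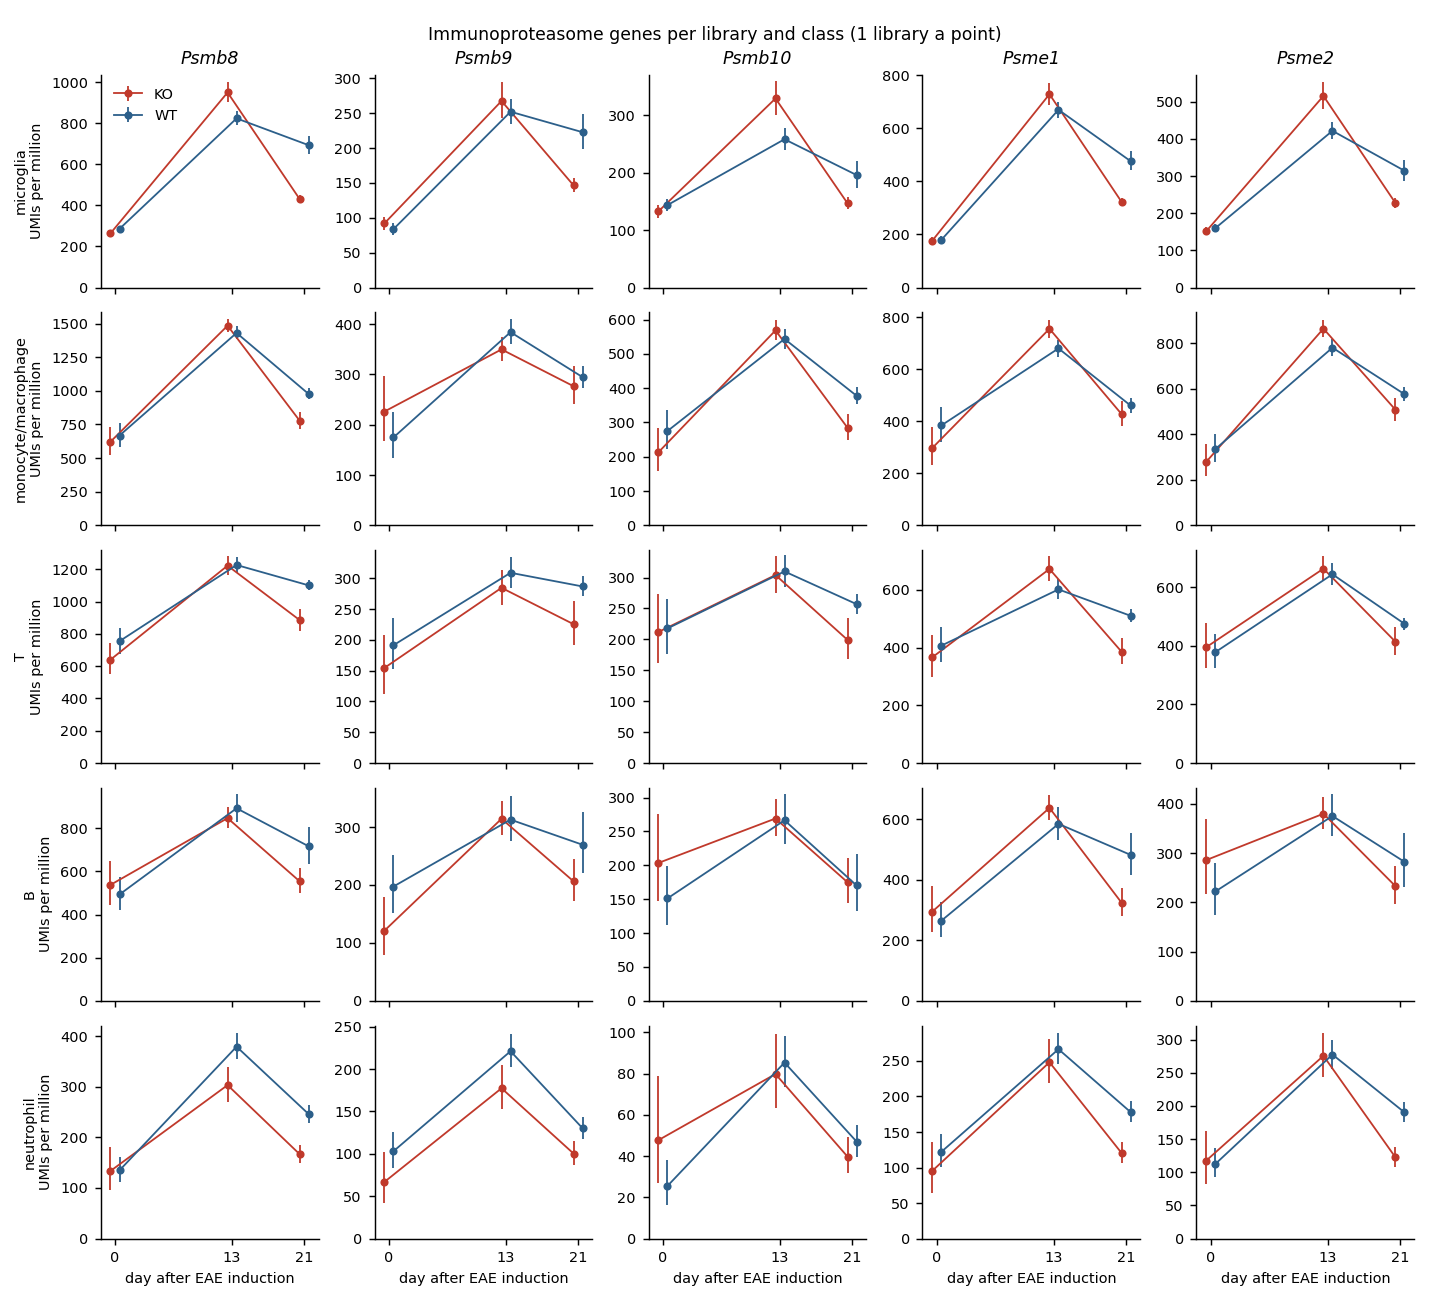
Level in CPM (y) by day after induction (x, to scale) for the 5 genes (columns) in 5 classes (rows), with KO in red left of WT in blue. Each point is 1 library, bars are 95% exact Poisson intervals (counting error only), and in each panel of microglia the day 13 points are the highest of their genotype.

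All 5 genes rose in microglia by day 13, by between 1.32 for Psmb10 and 2.21 for Psme1 on the log2 scale over both genotypes. In KO microglia Psmb8 had 264, 949 and 431 CPM on days 0, 13 and 21, against 286, 823 and 693 CPM in WT microglia. Psme1 had 177, 728 and 323 CPM in KO microglia on those days, against 180, 669 and 476 CPM in WT. Psme2 had 152, 516 and 227 CPM in KO microglia, against 160, 422 and 314 CPM in WT. For these 3 genes both day 13 libraries, and both of day 21, lay above both of day 0. Psmb9 had 92.1, 268 and 146.5 CPM in KO microglia, against 83.8, 252 and 223 CPM in WT, with the same order of days. Psmb10, the inducible partner of Psmb7, had 132.5, 329 and 146.5 CPM in KO microglia, against 143, 258 and 196 CPM in WT. For Psmb10 the day 21 library of KO lay close to the day 0 libraries. Marker levels moved with these values. The 8 microglial markers summed to 20340, 5616 and 12570 CPM in KO microglia on days 0, 13 and 21, against 19660, 6888 and 7486 CPM in WT. The 8 monocyte/macrophage markers, of which Vcan was at 0 in 3 libraries, summed to 28.5, 151.5 and 65.2 CPM in KO microglia, against 33.1, 117 and 172 CPM in WT. The 8 T cell markers summed to 15.8, 67.1 and 34.4 CPM in KO microglia, with Cd3e at 0 on day 13, against 44.1, 69.8 and 312 CPM in WT. Their part in the rise was not tested.

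Day 13 was tested against day 0 over 2 libraries a day, with genotype as a covariate (edgeR, 6 libraries a class). In microglia 5 of 5 members rose, where 27.7% of all genes were called in either direction. Psme1 rose by 2.21 ± 0.21 (log2, SE; adjusted p = 0.000137), a 4.62-fold change, and Psmb8 by 1.93 ± 0.23, a 3.82-fold change. Psme2 rose by 1.82 ± 0.21, Psmb9 by 1.79 ± 0.21 and Psmb10 by 1.32 ± 0.20. Their median was 1.82, against -0.02 over all genes. Of the constitutive catalytic genes, Psmb5 rose by 0.48 ± 0.16 (adjusted p = 0.0491), while Psmb6 (0.32 ± 0.14) and Psmb7 (0.45 ± 0.18) did not pass, and DESeq2 called none of the 3.

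Monocytes/macrophages had 5 of 5 members higher on day 13 (10.7% of genes called), between 1.09 for Psmb9 and 1.62 for Psme2 (log2). Their Psme2 had 280, 865 and 508 CPM in KO on days 0, 13 and 21, against 335, 781 and 576 CPM in WT. Psmb10 in this class had 213, 569 and 284 CPM in KO, against 275, 544 and 378 CPM in WT. The day 13 libraries of both genotypes stood above all others for both genes. On day 0 this class held 36 cells in KO and 58 in WT, against 425 and 375 on day 13. Its marker Arg1 was at 0 in both day 0 libraries and was detected in both on day 13. The part of such a shift in the rise was not tested. In B cells 5 of 5 rose (14.3% called), by between 0.98 for Psme2 and 1.53 for Psme1. Their Psme1 had 295.5, 638 and 325 CPM in KO, against 265, 585.5 and 483 CPM in WT. The B cell markers summed to 14090 and 7656 CPM in KO B cells on days 0 and 13, against 12950 and 7790 CPM in WT. The part of that fall in the rise was not tested either. In neutrophils 5 of 5 rose (14.2% called), by between 0.97 for Psmb9 and 1.16 for Psmb8. T cells started high: Psmb8 had 640, 1222 and 885 CPM in KO T cells, against 754, 1226 and 1100 CPM in WT. There 4 of 5 members rose (15.7% called), Psmb8 by 0.61 ± 0.13, Psmb9 by 0.57 ± 0.17, Psme2 by 0.56 ± 0.14 and Psme1 by 0.52 ± 0.15, while Psmb10 gave 0.32 ± 0.16 (adjusted p = 0.22). The T cell count fell to 0 without the KO day 0 library, to 1 without the WT day 0 library, to 2 without the KO day 13 library and to 2 by DESeq2. The B cell count was 3 by DESeq2, with plain totals and without the WT day 0 library. None of Psmb5, Psmb6 and Psmb7 passed edgeR's test in these 4 classes, with 1 of them at an unadjusted p under 0.05 in T cells and 1 in monocytes/macrophages, and DESeq2 called 0. Plain library totals moved the median of all genes by -0.26 in microglia, -0.40 in B cells, -0.19 in monocytes/macrophages, 0.19 in T cells and 0.27 in neutrophils, and left the direction of each member as it was. Under them Psmb5 was no longer called in microglia (0.25, adjusted p = 0.231 by edgeR), Psmb7 rose in T cells (0.65), Psmb6 rose in neutrophils (0.60), and in B cells Psmb6 (-0.64) and Psmb7 (-0.77) fell. Psmb10 rose in T cells under them (0.53, adjusted p = 0.0302 by edgeR), so that 5 of 5 members did.

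**Figure D2:**
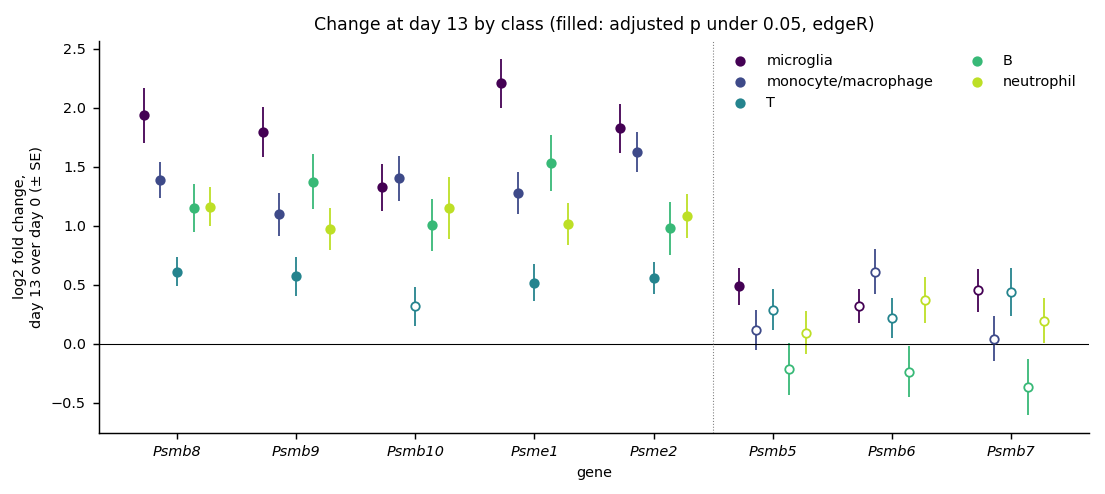
Log2 fold change of day 13 over day 0 (y, ± SE, edgeR on 6 libraries) for the 5 immunoproteasome genes and, right of the dotted line, the 3 constitutive catalytic genes, by class (colour). Filled points have an adjusted p under 0.05: they are 24 of the 25 member values and, of the 15 constitutive values, Psmb5 in microglia.

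Genes for class I loading and regulator genes of interferon signalling rose with the immunoproteasome in microglia on day 13. Over all genes 27.7% were called there, in either direction. Of 15 class I loading genes 11 rose, with a median of 1.56, led by the class I heavy chain genes H2-Q7 (5.25 ± 0.28) and H2-K1 (2.76 ± 0.20) and the peptide pump gene Tap1 (3.45 ± 0.22), and the chaperone gene Canx fell by 0.54 (log2). Of 12 regulator genes of interferon signalling 7 rose, led by Nlrc5 (4.37 ± 0.49), a transactivator of class I genes, and with Stat2 at 3.40 ± 0.22. The receptor gene Ifngr1 fell by 0.83. Irf1, a transcription factor that binds response elements, rose by 2.16 ± 0.21. Of 14 constitutive core subunits 8 rose, with a median of 0.50, led by Psmb4 (0.98 ± 0.19), Psmb1 (0.80 ± 0.17) and Psma5 (0.78 ± 0.19). Of 18 subunits of the regulatory cap 1 rose (Psmd8, 0.51 ± 0.14) and 1 fell (Psmc2, -0.60 ± 0.15). Of 8 tested genes for other activators and for assembly 2 rose: Psmg4 (1.32 ± 0.18) and Pomp (1.06 ± 0.18), whose product helps build new particles. The counts for the cap and for this list were not above the share over all genes. In monocytes/macrophages, B cells and neutrophils none of the core subunits passed edgeR's test (2, 0 and 4 at an unadjusted p under 0.05, 0 by DESeq2), while 10 of 15, 6 of 14 and 10 of 14 tested class I loading genes rose. Over all genes 10.7%, 14.3% and 14.2% were called in these classes, in either direction. In T cells 2 of 14 core subunits and 2 of 15 class I loading genes rose, near the 15.7% of all genes called in either direction. Plain library totals left the microglial count for class I loading at 11 of 15, took that of core subunits to 4 of 14 (median 0.27) and raised it to 10 in T cells and 6 in neutrophils, while 3 core subunits fell in B cells and 1 in monocytes/macrophages. In microglia they left 0 cap subunits rising and 3 falling, and 7 regulator genes of interferon signalling rising and 4 falling.

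The rise in microglia was set against that of each other class in 1 fit of 20 sums (edgeR, an interaction term, added after the data were seen). Against T cells 5 of 5 members rose more in microglia, by between 0.81 ± 0.20 for Psmb10 and 1.51 ± 0.17 for Psme1 (log2), where 10.4% of genes were called. Against B cells 2 of 5 did, Psme2 (0.69 ± 0.19) and Psmb8 (0.63 ± 0.16), where 9.15% were called. Against monocytes/macrophages 2 of 5 did, Psme1 (0.87 ± 0.17) and Psmb8 (0.46 ± 0.15), where 13.1% were called. Against neutrophils Psme1 did (0.97 ± 0.19), where 7.98% were called, and 4 of 5 with DESeq2 or with its size factors. The T cell result kept 4 or 5 members under every alternative run. The other 3 counts each went to 0 without a single library: that against B cells without KO day 0, KO day 13 or WT day 13, that against monocytes/macrophages and that against neutrophils without WT day 0 or WT day 13. That against monocytes/macrophages was 1 without KO day 0 or KO day 13, and that against neutrophils 2 without KO day 0. None of Psmb5, Psmb6 and Psmb7 passed edgeR's interaction test (2 at an unadjusted p under 0.05 against B cells, 0 against the others, 0 by DESeq2). Plain library totals moved the median of all genes by -0.42 against T cells, -0.46 against neutrophils and 0.14 against B cells, and 4 members were still called against T cells. Against B cells Psmb5 (0.87), Psmb6 (0.70) and Psmb7 (0.93) were all called under them, as were 11 of 14 core subunits.

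From day 13 to day 21 all 5 members had lower values in each of the 5 classes, and the fall passed edgeR's test in neutrophils and for part of the members in monocytes/macrophages. Neutrophil Psmb8 had 134, 303 and 167 CPM in KO on days 0, 13 and 21, against 135, 379 and 246 CPM in WT. In neutrophils 5 of 5 fell, by between 0.60 for Psmb8 and 0.79 for Psmb10 (log2), where 3.67% of genes were called. DESeq2 called 0 of them, and the count was 1 without the KO day 13 library and 2 without the KO day 21 library. In monocytes/macrophages 3 of 5 fell, Psmb10 by 0.80, Psmb8 by 0.78 and Psme1 by 0.74, where 2.43% were called, and the count was 1 without the WT day 0 or the KO day 13 library. In microglia 0 of 5 passed (log2 changes from -0.80 to -0.49, adjusted p from 0.15 to 0.355), where 0.288% of genes were called. All 5 had an unadjusted p under 0.05, DESeq2 called 1, 4 were called with no filter on low counts, 5 without the WT day 21 library and 1 without the WT day 13 library. In T cells 0 of 5 passed (-0.46 to -0.12), with 3 at an unadjusted p under 0.05 and 0 by DESeq2, where 2.17% were called, and 2 passed without the WT day 13 or the WT day 21 library. In B cells 0 of 5 passed (-0.65 to -0.44), with 4 at an unadjusted p under 0.05 and 0 by DESeq2, where 0.431% were called, and 1 passed without the WT day 21 library. Stat2 fell in microglia by 1.28, and Irf1 fell in neutrophils by 1.18. Psmb5, Psmb6 and Psmb7 gave 0 calls by edgeR or DESeq2 in these classes, with 1 at an unadjusted p under 0.05 in T cells and 1 in microglia. Plain library totals moved the median of all genes by -0.14 in neutrophils in this comparison.

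The balance of inducible and constitutive catalytic genes does not depend on library size, since each captured transcript gives 1 UMI and both parts come from the same cells. In KO microglia Psmb8, Psmb9 and Psmb10 made up 52.5%, 74.3% and 65.5% of the UMIs of the 6 catalytic genes on days 0, 13 and 21, against 53.3%, 73.8% and 73.2% in WT microglia. These are shares of RNA, and the make-up of assembled particles was not measured. The exact 95% intervals of the day 0 libraries (50.9% to 54.0% in KO, 51.9% to 54.8% in WT) lay below those of all later ones. In T cells the share was 72.2%, 74.6% and 73.6% in KO, against 71.0%, 75.1% and 74.9% in WT. It was thus at least 71.0% in every T cell library, day 0 included. B cells had 63.1%, 79.6% and 71.4% in KO, against 56.9%, 80.1% and 77.1% in WT. Monocytes/macrophages had 63.4%, 78.5% and 66.7% in KO, against 62.8%, 77.2% and 71.5% in WT. Neutrophils had 52.3%, 62.6% and 53.2% in KO, against 45.8%, 63.0% and 54.9% in WT.

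Over the 6 libraries the microglial share minus that of T cells averaged -8.11 points (SD 8.67, lower in 6 of 6 libraries), and minus that of B cells -5.92 points (SD 2.56, lower in 6 of 6). Minus that of neutrophils it averaged 10.2 points (SD 6.04, higher in 6 of 6). An exact two-sided permutation test that flips signs over libraries gave p = 0.03125 for each of these 3, the smallest it can give, and 0.0417 after adjustment over 4 classes. Against monocytes/macrophages the difference was -4.57 points (SD 4.84, lower in 5 of 6; exact p = 0.09375, adjusted p = 0.09375). With the mean of per-cell values, or with mixed cells kept, none of the 3 passed after adjustment, and the direction was the same. The gap to T cells was widest on day 0 and narrowest on day 13, from -19.7 to -0.29 points over the libraries. By pairs, Psmb8 made up 65.4% of Psmb8 and Psmb5 in KO microglia on day 0 and 66.5% in WT, Psmb9 made up 31.2% of Psmb9 and Psmb6 in KO and 29.3% in WT, and Psmb10 made up 56.9% of Psmb10 and Psmb7 in KO and 58.3% in WT. On day 13 the same pairs stood at 84.4%, 54.5% and 70.8% in KO microglia, and at 83.5%, 54.9% and 71.5% in WT microglia. On day 21 they stood at 77.7%, 46.2% and 63.0% in KO microglia, and at 82.3%, 59.0% and 65.6% in WT microglia. Psmb9 was thus the minor partner on day 0 and in the KO library of day 21.

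**Figure D3:**
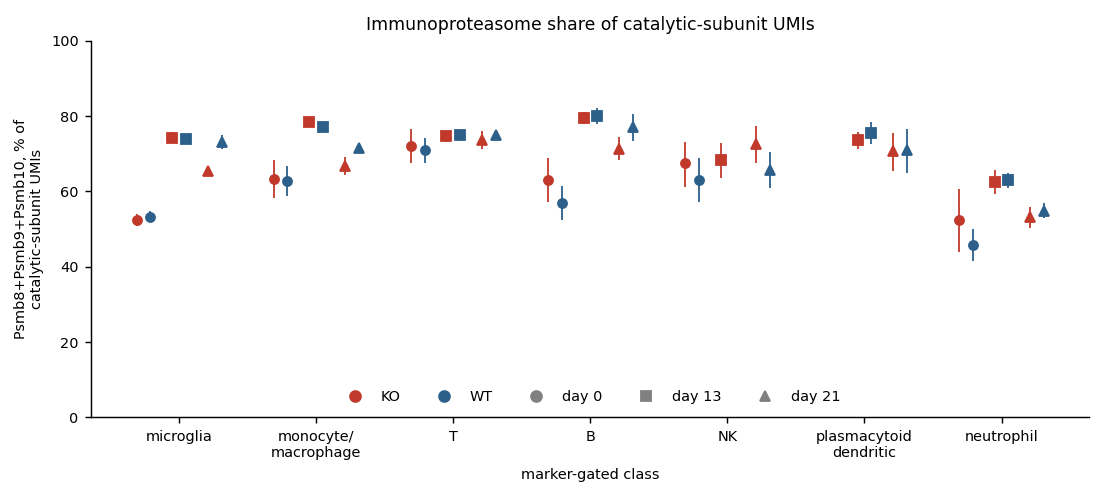
Share of Psmb8, Psmb9 and Psmb10 in the UMIs of the 6 catalytic genes (y, %) by marker-gated class (x), with days as shapes and KO in red left of WT in blue. Points are libraries with at least 30 cells of the class, bars are exact 95% binomial intervals (counting error only), and microglia run from 52.5% on day 0 to 74.3% on day 13.

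The loss of miR-155 was tested over the days, KO against WT with day as block. This fit gives 1 value over the days, so ratios of opposite sign cancel in it, and it tests no single day. In microglia the summed members stood at a log2 ratio of 0.20 on day 13 and -0.58 on day 21. In none of 6 classes was a member called by edgeR or by DESeq2. In microglia the log2 values lay between -0.23 ± 0.18 (SE) for Psmb8 and -0.09 ± 0.16 for Psmb10, with 0 of 5 at an unadjusted p under 0.05 and 0.0479% of all genes called. In T cells they lay between -0.21 and -0.00 (0 at an unadjusted p under 0.05, 0.498% called). In neutrophils they lay between -0.25 and 0.12 (0 at an unadjusted p under 0.05, 0.0159% called). In monocytes/macrophages they lay between -0.22 and -0.01 and in B cells between -0.30 and 0.12, with 0 at an unadjusted p under 0.05 in both. In NK cells, tested on days 0 and 21, they lay between -0.48 and 0.18, and Psme1 had an unadjusted p of 0.0366 by edgeR. In these last 3 classes 0% of genes were called by edgeR, with 288, 197 and 133 genes at an unadjusted p under 0.05, and DESeq2 called 0.

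Within a day there is 1 library of each genotype, so ratios have no replicate check and their 95% intervals cover counting error only. On day 0 Psmb8 in KO microglia was 0.924 times that in WT (interval 0.853 to 1.001), and 0 of 5 members were lower by 1.5-fold or more, against 0.822% of measured genes. On day 13 all 5 members had higher CPM in KO than in WT microglia, from 1.06 times for Psmb9 to 1.27 times for Psmb10, and 0 were lower by 1.5-fold or more (4.24% of genes). The sum of Psmb5, Psmb6 and Psmb7 was also higher in KO on that day, 1.13 times (interval 1.04 to 1.235), beside 1.15 times for the summed members (interval 1.11 to 1.195), and Psmb7 stood at 1.315 times (interval 1.10 to 1.57). On day 21 all 5 were below WT in KO microglia: Psmb8 at 0.622 times (interval 0.577 to 0.670), Psmb9 at 0.658, Psme1 at 0.678, Psme2 at 0.723 and Psmb10 at 0.749. The first 2 were lower by 1.5-fold or more, as were 6.64% of genes. The median log2 ratio of the members was -0.56, against 0.07 over all measured genes. Their sum was 1274 CPM in KO microglia, against 1902 CPM in WT microglia, on day 21, while the sum of Psmb5, Psmb6 and Psmb7 was 381 CPM in KO, against 407 CPM in WT. Of the regulators, Irf1 had 63.0 CPM in KO against 108 CPM in WT and Nlrc5 9.05 CPM in KO against 24.3 CPM in WT, while Ifngr1 was higher with 884 CPM in KO against 631 CPM in WT. Tap1 had 150.2 CPM in KO against 226 CPM in WT microglia. Psme2b, the copy of Psme2, had 41.6 CPM in KO against 26.4 CPM in WT.

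The microglia of the 2 day 21 libraries differed in other ways. The KO library held 1716 microglia and the WT library 537. Their own 8 markers came to 12570 CPM in KO, against 7486 CPM in WT, with all 8 detected in both. For the 8 T cell markers the sum was 34.4 CPM in KO, against 312 CPM in WT. The neutrophil markers came to 437 CPM in KO, against 951 CPM in WT, the monocyte/macrophage markers to 65.2 CPM against 172 CPM, and border macrophage markers to 81.7 CPM against 11.8 CPM. Of the 8 border macrophage markers 6 were detected in KO and 3 in WT, and of the monocyte/macrophage markers Vcan was at 0 in WT. On day 13 the T cell markers were at 67.1 CPM in KO, against 69.8 CPM in WT microglia. Their part in the day 21 ratios was not tested.

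Most members had lower values in KO on day 21 in other classes as well. In T cells 5 of 5 were below WT (median log2 ratio -0.35, against -0.02 over all genes), and 0 by 1.5-fold, against 8.49% of genes. In B cells 4 of 5 were below WT (median -0.37, against 0.10), and 0 by 1.5-fold (14.3%). In neutrophils 5 of 5 were below WT (median -0.56, against -0.18), and 1 by 1.5-fold, Psme2 at 0.643 times (17.7% of genes). The sum of Psmb5, Psmb6 and Psmb7 was lower there too, at 0.777 times in neutrophils (interval 0.700 to 0.860) and 0.851 times in T cells (interval 0.757 to 0.955). In monocytes/macrophages 5 of 5 were below WT (median -0.18, against 0.05), and 0 by 1.5-fold (11.3%). In NK cells 3 of 5 were below WT and in plasmacytoid dendritic cells 4 of 5. Their summed members stood at 0.958 times WT (interval 0.836 to 1.098) and 0.922 times WT (interval 0.792 to 1.07), and both intervals include equality. On day 13 the summed members of KO over WT lay between a log2 ratio of -0.18 in neutrophils and 0.20 in microglia. With mixed cells kept, the neutrophil value was 0.18 and that of monocytes/macrophages 0.02, against 0.08 without them. The KO and WT libraries enter all classes, so these values share their animals.

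**Figure D4:**
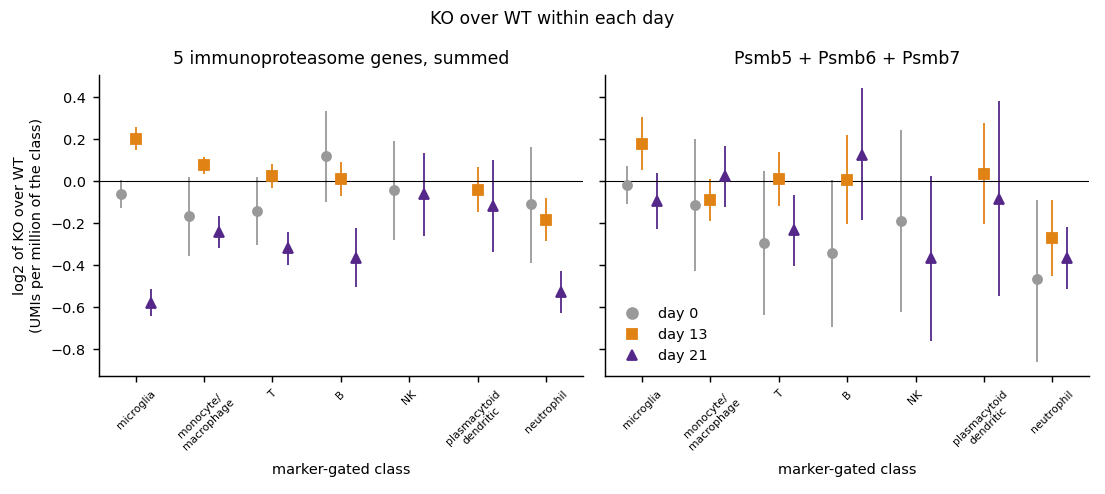
Log2 ratio of KO over WT (y) of the summed CPM of the 5 immunoproteasome genes (left) and of Psmb5, Psmb6 and Psmb7 (right) by class (x), with days as shapes and colours. Each point compares 1 library with 1, bars are 95% conditional Poisson intervals (counting error only), and in microglia the summed members stand at 0.20 on day 13 and -0.58 on day 21.

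Microglia of 1 library differ in their MHC class II genes, which present peptides from outside the cell and were used neither to gate cells nor to choose the members. Cells of each library were ranked by the share of UMIs from Cd74, H2-Aa, H2-Ab1 and H2-Eb1, these genes were left out of the totals, and the upper tertile was compared with the lower. On day 21 the upper tertile of KO microglia had 1561 CPM of the summed members and the lower 1141 CPM. In WT microglia of that day the upper tertile had 2319 CPM and the lower 1528 CPM. On day 13 the tertiles had 2800 and 2771 CPM in KO microglia and 2606 and 2233 CPM in WT, upper first. On day 0 they had 880.4 and 786.5 CPM in KO and 865.5 and 816 CPM in WT. The upper tertile was thus higher in 6 of 6 libraries, by a mean log2 ratio of 0.26 (SD 0.23, range 0.01 to 0.60; exact sign-flip permutation p = 0.03125, the smallest possible, adjusted p = 0.0469 over 3 tests). The constitutive catalytic genes gave -0.03 (SD 0.08, higher in 2 of 6 libraries, adjusted p = 0.4375 by the same exact test). The difference between both sets was 0.29 (SD 0.20, 6 of 6, adjusted p = 0.0469, exact permutation test). With cells split at the median, the members gave 0.18 and the difference 0.21, and neither passed (adjusted p = 0.09375 each, exact permutation test).

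The size of the step differed between libraries. Psmb8 was 1.47 times as high in the upper tertile of KO microglia on day 21 and 1.68 times in WT, but 1.04 times in KO and 1.12 times in WT on day 13. Psme2 was 1.24 times as high in KO on day 21 and 1.79 times in WT. Psmb9 was 1.54 times as high in KO on day 21 and 1.25 times in WT, and lower in the upper tertile of KO on day 13 (0.868 times) and of WT on day 0 (0.951 times). On day 0, 70.3% of KO and 72.0% of WT microglia held no class II UMI, so the lower tertile was drawn among ties in file order. The upper tertile of that day held 44 such cells of 408 in KO and 72 of 454 in WT, drawn the same way. Over the 4 libraries of days 13 and 21 alone, a choice made after the data were seen, the members gave 0.32 (SD 0.26, 4 of 4 higher). Their exact permutation test cannot go below p = 0.125 with 4 libraries. On day 21 the median UMIs per cell were 2832 and 2623 in the upper and lower tertile of KO, and 2224 and 2036 in those of WT. The T cell markers on that day summed to 36.4 and 32.9 CPM in KO and to 137.5 and 479 CPM in WT (upper tertile, then lower). The monocyte/macrophage markers summed to 111 and 46.4 CPM in KO and to 230 and 83.2 CPM in WT. The microglial markers summed to 10470 and 14810 CPM in KO and to 5957 and 9826 CPM in WT. In every library the upper tertile was lower in microglial markers and higher in monocyte/macrophage markers. The latter step was small in KO on day 13 (144.5 against 143.7 CPM). The part of depth and of these markers in the result was not tested.

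**Figure D5:**
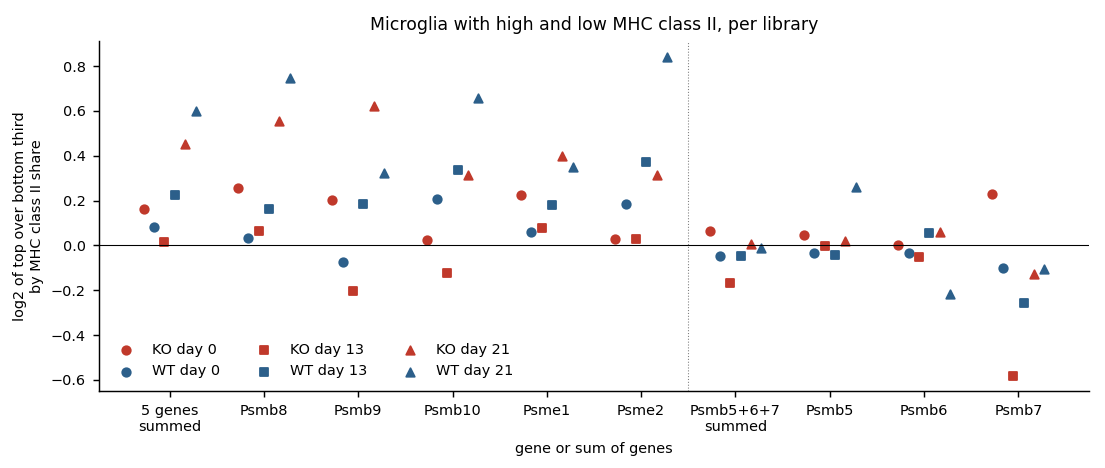
Log2 ratio of the upper over the lower tertile of microglia by MHC class II share (y) for the summed members, each member and, right of the dotted line, the constitutive catalytic genes (x). Each point is 1 library (KO red, WT blue, days as shapes), and the summed members lie between 0.01 and 0.60, above 0 in all 6.

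Across the 40 sums of library and class with at least 30 cells, the members varied together. Pearson's r of log2(CPM + 1) among them ran from 0.715 for Psmb9 with Psmb10 to 0.956 for Psmb8 with Psme1, and from 0.44 to 0.805 between members and constitutive catalytic genes. Classes of 1 library share its animals and depth, and the sums span cell types, so these values are descriptions. Of 7328 other genes measured, those most like the summed members were H2-T22 (r = 0.902), a class I heavy chain gene, then Nubp1 (0.899), Kxd1 (0.895), Ppa1 (0.894) and Phf11b (0.893). For Psmb9 the first was Tap1 (0.87), whose start lies next to its own, and for Psme1 it was Tap1 as well (0.901). Psmb8 was most like H2-T22 (0.913) and Psme2 most like the core subunit genes Psmb4 (0.867) and Psma4 (0.849). Psmb10 was led by genes of mitochondrial metabolism and protein handling, Idh3b (0.916), Atp5g1 (0.916) and Hspa8 (0.913).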

How the data were processed

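The submitters' processing notes name Cell Ranger 2.0.2 and build mm10; the counting options are not stated in any label. The deposited matrices hold raw UMI counts, whole numbers with no normalization. Cells were kept from 200 genes upwards, with mitochondrial UMIs of 10% at most. A cell took the class with most of its 8 markers if it held at least 3 and no other class had more than 0.5 times as many; cells with markers of several classes were left out, in place of a doublet caller. Counts were summed per library and class with at least 30 cells and tested with edgeR 4.0.16 (R 4.3.3). The settings were TMM, filterByExpr, quasi-likelihood, Benjamini-Hochberg and threshold 0.05. DESeq2 1.42.0 served as an alternative. Of the edgeR and DESeq2 fits, only edgeR's genotype test in microglia was also run on simulated counts. Genotypes stand as replicates of the day contrasts and days as those of the genotype contrast, so p-values measure only the spread between these libraries. Named genes are the members, Psmb5, Psmb6, Psmb7, Irf1, Nlrc5, Ifngr1, the 5 genes most correlated with each pattern, and the largest 3 changes per list and direction; other genes were named after their values were seen, and 1 gene of the rule is not reported here. The members, gate and lists were chosen with earlier results of these data known. Intervals cover counting error only.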

Additional observations from a re-analysis of the deposited data

Results flagged for a closer look

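Some members had higher CPM in KO than in WT on day 13 and lower CPM in KO on day 21, with counting intervals that exclude equality on both days. With 1 library a genotype and day, the difference between days was not tested. In microglia the log2 ratio of KO over WT changed by -0.891 for Psmb8 (0.21 on day 13, -0.69 on day 21), by -0.768 for Psmb10 (0.35, then -0.42), by -0.757 for Psme2 (0.29, then -0.47) and by -0.681 for Psme1 (0.12, then -0.56). On day 13 the sum of Psmb5, Psmb6 and Psmb7 in microglia was higher in KO too, by a log2 ratio of 0.18 (95% interval 0.05 to 0.30, counting error only), and on day 21 the ratio was -0.10 (interval -0.23 to 0.04). In T cells the ratio changed by -0.564 for Psme1 (0.16, then -0.40). In monocytes/macrophages it changed by -0.330 for Psme2 (0.15, then -0.18).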

How the results depend on the processing

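The labels give no replicate numbers, so no animals could be paired. The exact permutation tests of the share and of the class II tertiles paired values within a library. The fits held blocks by day, genotype or library. Tests of the conventional dendritic class, which had too few cells, and NK fits without a library, which had no residual degrees of freedom, were not run. Where a value changed, the cause was not tested unless fewer libraries are the reason. With DESeq2 the members called on day 13 against day 0 were 3 in B cells and 2 in T cells, those on day 21 against day 13 were 1 in microglia and 0 in neutrophils, and the day 13 change of microglia over neutrophils gave 4, as it did with RLE scaling. Over all genes DESeq2 called 260 in B cells and 526 in T cells on day 13, against 795 and 1225 by edgeR. On day 21 it called 61 in microglia and 59 in neutrophils, against 30 and 231. For the change over neutrophils it called 625, against 817. With no filter on low counts, day 21 against day 13 gave 4 in microglia and 1 in T cells, and the change over monocytes/macrophages 1. One more marker gave 2 members in T cells against the other classes and 1 in the change over monocytes/macrophages. With mixed cells kept, plasmacytoid dendritic cells had 0 against the other classes, the change over B cells gave 0 and over monocytes/macrophages 1, and neutrophils had 2 on day 21 against day 13. With them kept, KO over WT on day 13 turned to 0.18 for the sum and 0.30 for Psmb8 in neutrophils and was 0.022 in monocytes/macrophages (log2), and the share of microglia minus T cells, B cells and neutrophils was -7.70, -4.40 and 9.10 points. The mean of per-cell CPM gave -7.92, -6.18 and 8.39 points for these shares. The split at the median by class II share gave 0.18 for the members and 0.21 for members minus constitutive genes (log2), and days 13 and 21 alone gave 0.32 and 0.38. Plain library totals, added after the data were seen, gave 4 members in T cells and 4 in plasmacytoid dendritic cells against the other classes, 3 in B cells on day 13 against day 0 and 1 in T cells on day 21 against day 13. Under them these values against the other classes changed sign (log2): Psmb9 (0.17) and Psme1 (0.27) in T cells, Psmb10 (0.17) and Psme1 (0.25) in microglia, Psmb9 in neutrophils (-0.86), and in plasmacytoid dendritic cells Psmb9 (0.35), Psmb10 (0.048), Psme1 (0.45) and Psme2 (0.45).

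Without 1 library each, the members called ranged as follows. Plasmacytoid dendritic cells against the other classes had 0 to 1. Day 13 against day 0 gave 3 to 5 in B cells and 0 to 4 in T cells. The change of microglia over B cells, over monocytes/macrophages and over neutrophils gave 0 to 2 each. Day 21 against day 13 gave 0 to 1 in B cells, 0 to 2 in T cells, 0 to 5 in microglia, 1 to 4 in monocytes/macrophages and 1 to 5 in neutrophils. The share differences ranged from -9.68 to -5.79 points against T cells, from -6.40 to -4.97 against B cells and from 8.53 to 12.18 against neutrophils. The class II values ranged from 0.19 to 0.30 for the members and from 0.23 to 0.33 for members minus constitutive genes. With 5 libraries the exact test of the last 2 groups cannot go below p = 0.0625, so these say nothing on stability.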
